A study of Mus musculus with 12 samples.

Results

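Plac9a, Plac9b, Tmem254a, Tmem254b, Fam205a2, Ccl21b, Srp54b, Gm3893 and 4933409K07Rik are 9 mouse genes grouped here as near-identical multicopy genes. They were taken by symbol from a table of 24411 gene rows and were selected on measured values: counts that carried decimals and differed between knockout and wild-type libraries. The difference between genotypes is therefore how they were chosen, and it is given as a description with no test. The effect of stress, and whether it differed between genotypes, played no part in the choice and was tested.

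The libraries were made from total RNA of the medial prefrontal cortex of adult female mice aged 8 to 12 weeks. Wild-type (WT) C57BL/6J mice were bought from a breeder, and mice lacking Cav3.1, the T-type calcium channel encoded by Cacna1g, came from a repository and are described as having a C57BL/6J background. Within each genotype there were 3 libraries from unstressed mice and 3 from mice given chronic stress: on each of 5 days they went through either forced swimming or tail suspension. No agent was given to any group. The knockout (KO) is constitutive as far as the labels say. Because the KO and the WT mice had different suppliers, an effect of Cacna1g loss and a difference between the colonies cannot be told apart. The labels do not say that each library is a separate animal, so the p-values reflect the spread among libraries, which may in part be technical.

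The libraries held from 15469590 to 31082240 estimated counts each. Levels are given as CPM, which is estimated counts scaled to libraries of 1000000 effective counts, and 3 counts, the most that a count of 0 allows, correspond to 0.0920 to 0.192 CPM; such limits cover counting error only. Cacna1g itself was at 127 ± 14.1 CPM in WT (SD, 6 libraries) and 60.6 ± 4.46 CPM in KO, and the genotypes did not overlap. All 6 markers of cortical excitatory neurons were above 0 in every library. The summed level of 6 olfactory bulb markers was 695 and 784 CPM in unstressed WT libraries 1 and 2, 94.7 CPM in unstressed WT library 3 and 18.1 to 93.5 CPM in the other 9, so tests that use unstressed WT are also given without those 2 libraries. In bulk tissue, fewer cells of a type and less RNA per cell cannot be told apart.

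Genes that have been duplicated recently keep almost the same sequence, so a sequencing read from one copy often fits another equally well. RSEM, the counting program named in the submitters' processing notes, shares such reads among the copies by estimated probabilities, which gives counts with decimals. Inbred mouse strains, and substrains of one strain, are known to differ in the number of copies of some such loci. A level assigned to one copy therefore depends on which other copies the annotation holds, whereas the sum over copies depends on that sharing only through reads that also fit genes outside the sum.

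Between 11 and 12 of the 12 libraries had a decimal count for 8 of the 9 genes, and 7 of 12 did for Ccl21b, where 3 KO libraries were at 0. Over all genes, 922 rows had decimals in at least 6 libraries. In GENCODE transcripts, every stretch of 100 bases in Tmem254b, Fam205a2 and Ccl21b also occurred in a gene with another symbol. The share was 99.7% for Plac9a, 97.5% for Gm3893, 96.5% for Plac9b, 87.6% for Srp54b and 73.6% for Tmem254a, against 0% for Cacna1g. Gm3893 shared stretches with 13 other symbols, chiefly Gm2163, Gm10593 and Gm3892. No transcript of 4933409K07Rik was used here, so its likeness to other copies was not checked.

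The coding sequences show how little there is to tell the copies apart. Plac9a and Plac9b were identical over 324 coding bases, and Tmem254a, Tmem254b and Tmem254c over 387. Srp54b was identical to Srp54a over all 1512 coding bases and differed from Srp54c at 6, counted from the first coding base of Srp54b: T501C, T945C, G946A, T965G, A1197T and G1249A. Ccl21b differed from Ccl21a at 2 of 399 bases, A84T and T194C, and was identical to Gm10591, Gm13304 and Gm21541. Fam205a2 was identical to Fam205a3 and Fam205a4 over 3924 bases and differed from Fam205a1 at 27. The 90-base coding stretches below show the parts that separate copies where any do, on GRCm38, with capitals at each base that differs from the other copy printed and none where the pair is identical:
Srp54b, chr12:55183565-55183654 (plus strand): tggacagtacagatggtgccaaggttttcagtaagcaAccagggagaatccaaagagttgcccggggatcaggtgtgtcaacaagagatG
Srp54c, chr12:55257428-55257517 (plus strand): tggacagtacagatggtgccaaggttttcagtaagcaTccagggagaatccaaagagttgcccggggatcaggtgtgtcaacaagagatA
Ccl21b, chr4:42255922-42256011 (plus strand): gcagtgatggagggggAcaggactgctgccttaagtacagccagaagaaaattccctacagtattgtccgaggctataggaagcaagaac
Ccl21a, chr4:42773674-42773763 (minus strand): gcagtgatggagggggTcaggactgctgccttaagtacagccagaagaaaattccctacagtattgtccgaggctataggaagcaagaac
Fam205a2, chr4:42525944-42526033 (minus strand): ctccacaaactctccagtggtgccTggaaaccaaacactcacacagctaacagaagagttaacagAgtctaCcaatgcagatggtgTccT
Fam205a1, chr4:42851592-42851681 (minus strand): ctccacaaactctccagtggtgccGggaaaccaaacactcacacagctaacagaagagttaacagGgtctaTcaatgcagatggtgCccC
Plac9a, chr14:25902793-25902882 (minus strand): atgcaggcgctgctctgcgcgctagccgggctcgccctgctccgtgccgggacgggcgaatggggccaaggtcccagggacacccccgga
Plac9b, chr14:26182173-26182262 (minus strand): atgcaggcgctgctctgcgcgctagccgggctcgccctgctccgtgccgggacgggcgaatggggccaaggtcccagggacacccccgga
Tmem254a, chr14:25927060-25927149 (minus strand): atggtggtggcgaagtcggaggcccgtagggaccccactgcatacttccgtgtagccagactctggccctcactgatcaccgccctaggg
Tmem254b, chr14:26206429-26206518 (minus strand): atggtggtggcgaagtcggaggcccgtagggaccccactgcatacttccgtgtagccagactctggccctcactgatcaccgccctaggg

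On the RefSeq map of GRCm38.p6 the genes fall in 3 places. Plac9a (chr14:25888403-25902893), Tmem254a (chr14:25923298-25927672), Plac9b (chr14:26167316-26182351) and Tmem254b (chr14:26203366-26207025) lie on the minus strand of chromosome 14, all protein-coding. The same pair of genes is thus repeated: Plac9a starts 34.9 kb from Tmem254a and Plac9b 36.0 kb from Tmem254b. These units are about 280.1 kb apart measured between Tmem254a and Tmem254b. A further unit lies between them, with Gm9780 (chr14:26027702-26042737), another Plac9 copy, and Tmem254c (chr14:26063751-26067425). On chromosome 4 lie Gm3893 (chr4:42089373-42092930, plus strand, a transcribed pseudogene in RefSeq and protein-coding in GENCODE), Ccl21b (chr4:42173120-42256825, plus strand) and Fam205a2 (chr4:42522437-42537578, minus strand). RefSeq assigns 4933409K07Rik, another transcribed pseudogene, to chromosome 4 as well, and its coordinates were not used here. Srp54b (chr12:55155104-55189213, plus strand) sits 74.6 kb from the start of Srp54a and 75.0 kb from that of Srp54c.

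Ccl21b encodes a CCL21 chemokine, a ligand of the receptor CCR7 that guides dendritic cells and lymphocytes towards lymphatic vessels and lymph nodes. It was at 19.0, 18.3 and 30.6 CPM in unstressed WT and at 35.1, 28.5 and 27.5 CPM in stressed WT. In KO it was listed at 0 in libraries 1 and 3 without stress and in library 1 with stress, and reached 0.548 CPM in unstressed library 2 and 0.303 and 0.350 CPM in stressed libraries 2 and 3. Every WT library thus held at least 552 estimated counts and no KO library more than 12. Mean levels were 26.5 ± 6.62 CPM in WT and 0.200 ± 0.234 CPM in KO (SD, 6 libraries each), which is near the level of 3 counts. Ccl21a and Ccl21c stayed low in both genotypes, at most 0.334 and 1.49 CPM, and the values of Ccl21c were the same as those of Gm10591, Gm13304 and Gm21541 in all 12 libraries. Summed over Ccl21a, Ccl21b and Ccl21c the level was 27.3 ± 6.85 CPM in WT and 0.446 ± 0.159 CPM in KO, and the genotypes did not overlap.

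Srp54b encodes a copy of SRP54, the GTPase subunit of the signal recognition particle, which carries ribosomes making secreted and membrane proteins to the endoplasmic reticulum. It was the only gene of the 9 that was higher in KO. Its levels were 35.8, 28.6 and 26.1 CPM in unstressed WT, 26.2, 34.9 and 32.6 CPM in stressed WT, 63.6, 79.4 and 64.7 CPM in unstressed KO and 74.3, 56.2 and 67.2 CPM in stressed KO. The lowest KO library lay above the highest WT library. The fitted difference was 1.14 ± 0.11 on the log2 scale (SE, averaged over the stress levels). Srp54a was at 47.6 ± 5.89 CPM in WT and 62.2 ± 5.95 CPM in KO, and Srp54c at 114 ± 15.0 and 135 ± 12.3 CPM; both overlapped between genotypes. The sum of the 3 copies was 193 ± 19.8 CPM in WT and 265 ± 22.7 CPM in KO, which is 137.4% of the WT level, and it did not overlap. Srp54a and Srp54c together, without Srp54b, came to 162 ± 19.2 and 197 ± 17.5 CPM and overlapped.

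Plac9a and Plac9b, copies of a gene for a small secreted protein first described in placenta, were low in every library. Plac9a ranged from 2.42 to 4.50 CPM in WT (median 3.47) and from 0.410 to 1.05 CPM in KO (median 0.576). Plac9b ranged from 2.18 to 3.16 CPM in WT (median 2.66) and from 0.163 to 0.463 CPM in KO (median 0.331). Their estimated counts added up to a whole number in all 12 libraries, to within 1e-09 of a count. That sum ran from 139 to 204 counts in WT libraries and from 15 to 37 in KO libraries. As CPM it was 6.11 ± 0.894 in WT and 0.999 ± 0.255 in KO, so the sum of Plac9a and Plac9b in KO was 16.4% of that in WT. Gm9780, which differs from Plac9a at 1 of 320 aligned coding bases, is not in that sum.

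Tmem254a and Tmem254b encode a small membrane protein whose function is little known. Tmem254b was at 51.2, 51.8 and 51.9 CPM in unstressed WT and 62.1, 78.4 and 74.4 CPM in stressed WT, against 15.1, 14.8 and 15.3 CPM in unstressed KO and 13.8, 14.4 and 15.0 CPM in stressed KO. Its levels in the 6 KO libraries spanned only 13.8 to 15.3 CPM. Tmem254a ranged from 3.65 to 7.63 CPM in WT and 0.801 to 1.38 CPM in KO. The sum of both was 66.8 ± 13.6 CPM in WT and 15.8 ± 0.567 CPM in KO, or 23.6% of WT. Tmem254c, the copy between them on the map, was listed at 0 in 10 libraries and held 26.32 and 20.95 estimated counts in unstressed WT library 2 and unstressed KO library 3.

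Fam205a2, Gm3893 and 4933409K07Rik are little characterised, and no role is stated for them here. Fam205a2 was at 22.5, 29.0 and 38.8 CPM in unstressed WT, 42.8, 52.9 and 55.9 CPM in stressed WT, 13.6, 12.5 and 16.4 CPM in unstressed KO and 13.7, 14.9 and 15.3 CPM in stressed KO. Gm3893 was at 48.5, 69.5 and 112 CPM in unstressed WT and 94.8, 110 and 143 CPM in stressed WT, while all 6 KO libraries lay between 7.60 and 10.6 CPM. For 4933409K07Rik the values were 58.5, 84.3 and 131 CPM in unstressed WT, 122, 144 and 173 CPM in stressed WT, and 30.2 to 48.5 CPM in KO. These 3 genes varied far more among WT libraries than among KO libraries. In each of them unstressed WT library 1 was the lowest WT library and library 2 the next lowest, the same 2 libraries that were rich in olfactory bulb markers, and the part of that tissue in their levels was not tested.

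In all, 9 of 9 genes had no overlap between the 6 WT and the 6 KO libraries, 8 lower and 1 higher in KO; among the 15199 genes tested 2.25% had none, which is shown only as background since the genes were picked for differing. The KO level was 0.755% of WT for Ccl21b, 9.18% for Gm3893, 12.0% for Plac9b, 19.7% for Plac9a, 20.5% for Tmem254a, 23.9% for Tmem254b, 34.9% for 4933409K07Rik, 35.7% for Fam205a2 and 220% for Srp54b (means of 6 libraries). The fitted log2 differences, averaged over stress levels, were -7.19 ± 0.43 for Ccl21b, -3.41 ± 0.20 for Gm3893, -3.11 ± 0.19 for Plac9b and -2.40 ± 0.17 for Plac9a (SE). For Tmem254a, Tmem254b, 4933409K07Rik and Fam205a2 they were -2.28 ± 0.17, -2.05 ± 0.06, -1.48 ± 0.17 and -1.44 ± 0.13. The value for Ccl21b depends on the prior count, since its KO libraries held 0 to 12 counts, and it was -9.80 without unstressed KO library 2. The differences kept their signs without unstressed WT libraries 1 and 2, from -7.41 for Ccl21b to 1.24 for Srp54b. Levels were not 0 in KO except for Ccl21b in 3 libraries. All 9 passed the filter on low counts, but Plac9b and Ccl21b did so through the WT libraries alone.

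**Figure D1:**
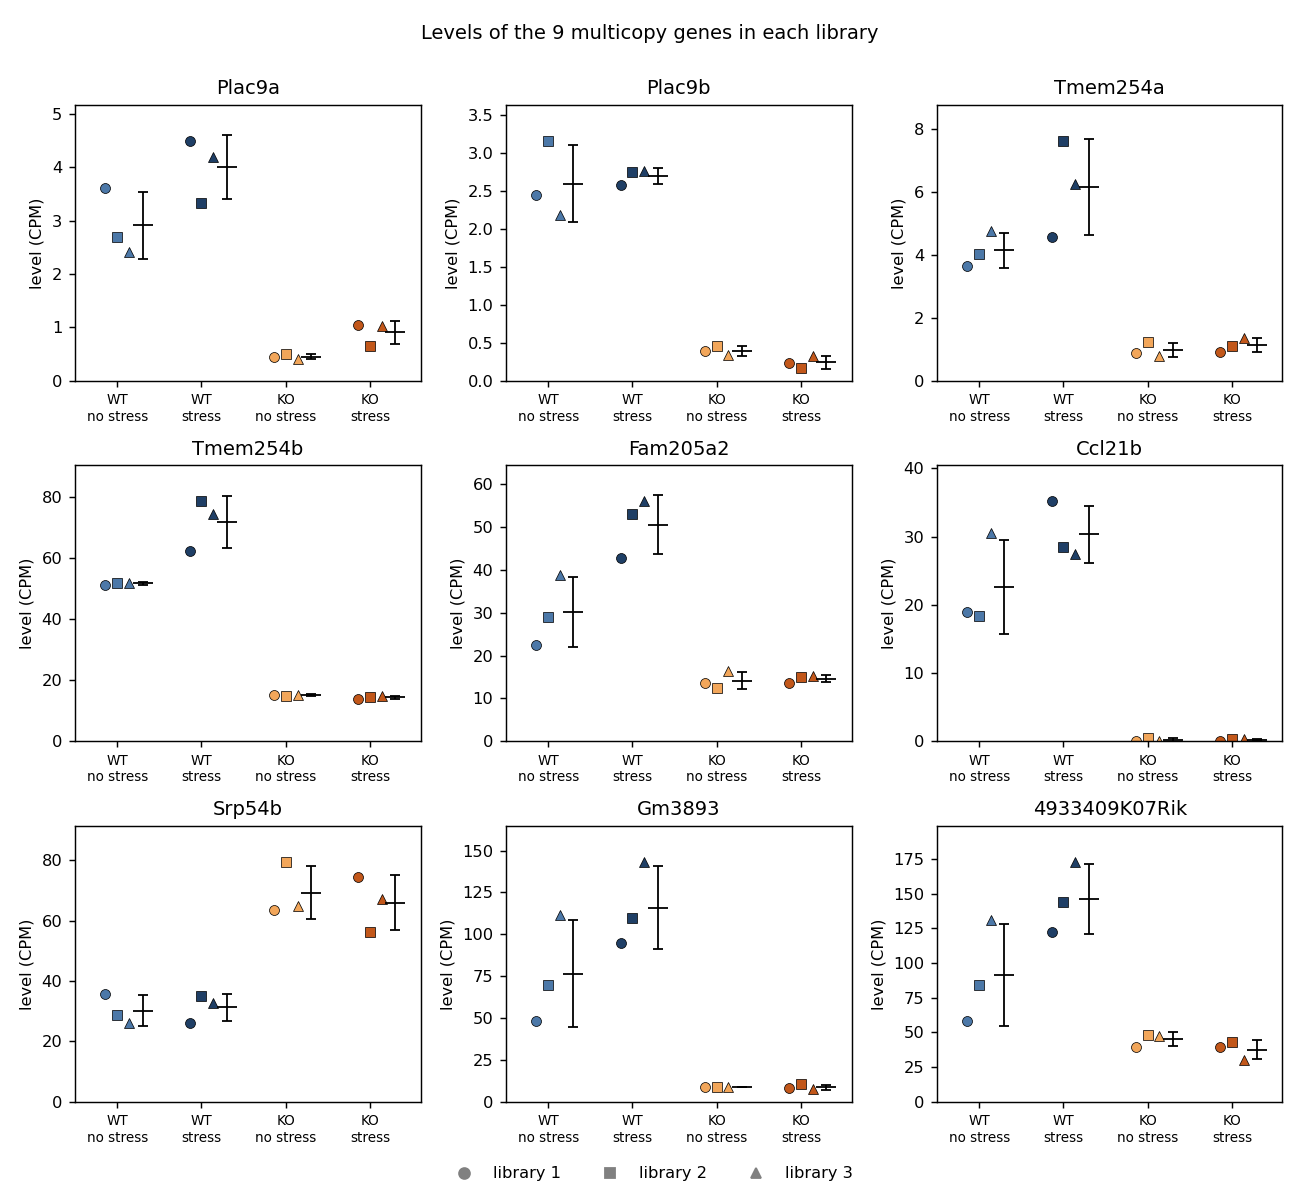
Level of each of the 9 genes (vertical axis, CPM, starting at 0) in each library (points; shape gives the library number) of the 4 groups (horizontal axis), with group mean and SD beside the points. Srp54b is higher in all 6 KO libraries, from 56.2 to 79.4 CPM, and the other 8 genes are lower there; Gm3893 in unstressed WT spreads from 48.5 to 112 CPM.

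**Figure D2:**
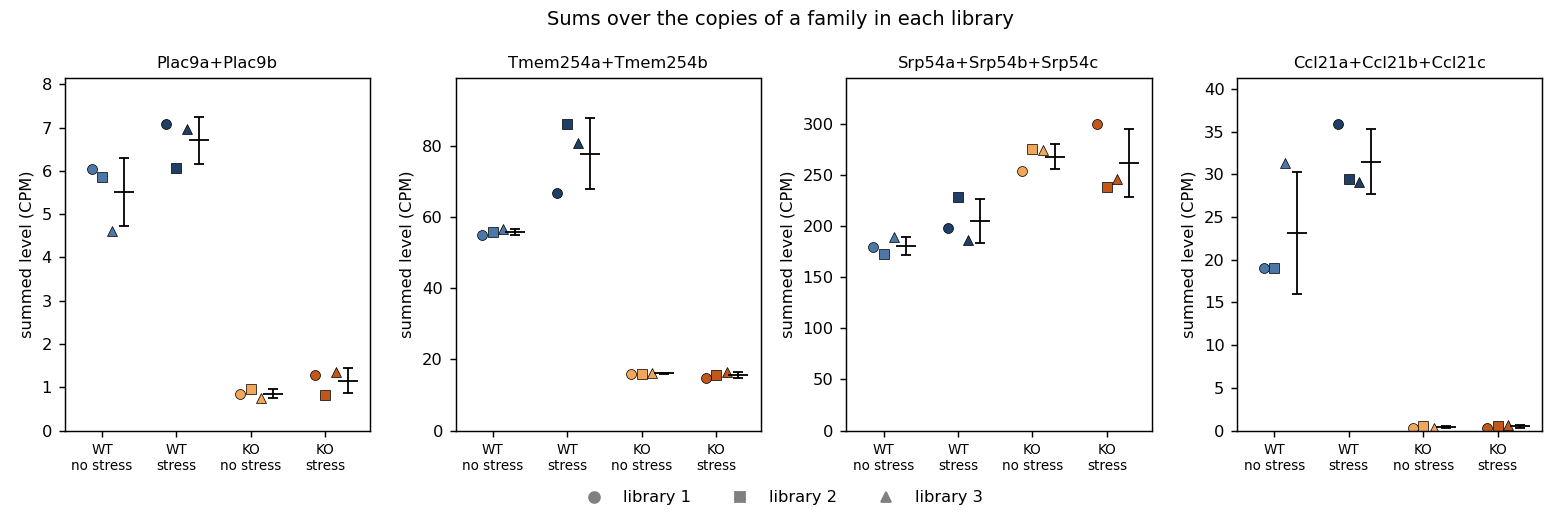
Summed level (vertical axis, CPM, starting at 0) of the copies of 4 families in each library (points) of the 4 groups, with group mean and SD. The Plac9, Tmem254 and Ccl21 sums are lower in all 6 KO libraries, and the Srp54 sum is higher, 238 to 300 CPM against 172 to 229 CPM.

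How the reads of a family were divided among its copies was looked at apart from the sums. Srp54b received 16.0 ± 2.50% of the Srp54 counts in WT (SD, 6 libraries; range 13.2% to 19.9%) and 25.5 ± 2.09% in KO (range 23.6% to 28.8%), without overlap. Tmem254a received 7.63 ± 0.877% of the Tmem254 counts in WT and 6.68 ± 1.31% in KO, and the ranges overlapped. In an exact two-sided permutation test within genotypes (400 assignments), the Tmem254a share differed by 0.84 percentage points with stress (p = 0.2, 0.6 adjusted over 3 tests) and the Srp54b share by -1.02 points (p = 0.455, adjusted 0.683). The same exact test without unstressed WT libraries 1 and 2 gave 0.35 (p = 0.675) and 0.46 points (p = 0.775), the latter with its sign turned. The third share, of Fam205a2, was at 97.3% to 100% in every library and the identical Fam205a3 and Fam205a4 are not in its sum, so nothing is read from it.

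**Figure D3:**
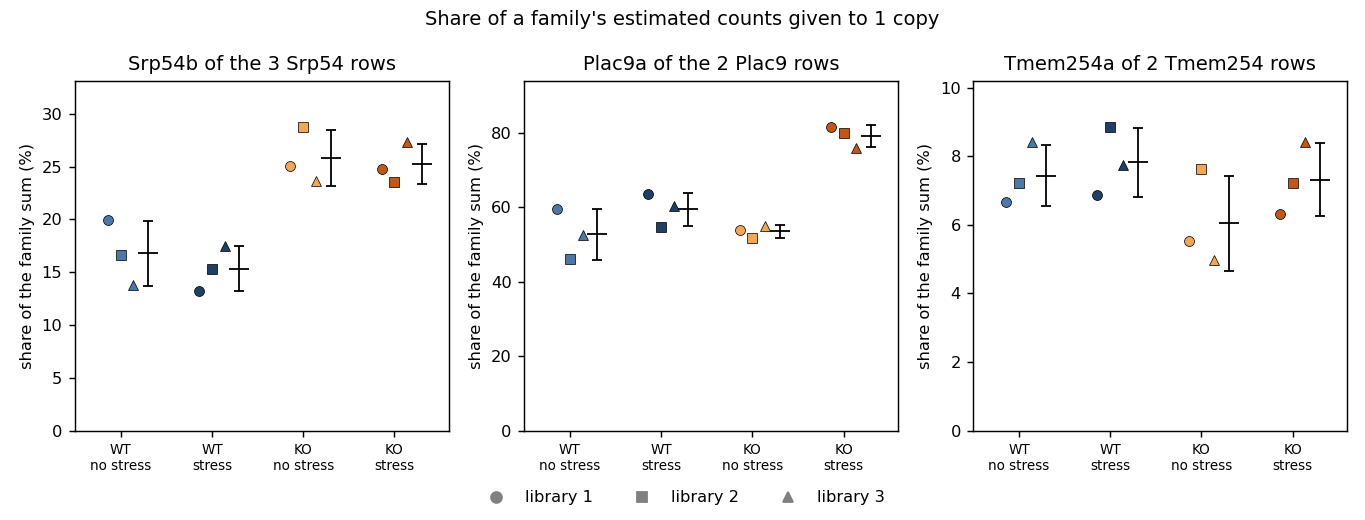
Share of a family's estimated counts assigned to a named copy (vertical axis, percent, starting at 0) in each library (points) of the 4 groups, with group mean and SD. Srp54b takes 13.2% to 19.9% in WT and 23.6% to 28.8% in KO; the Plac9a share in stressed KO rests on 17 to 37 counts a library.

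In WT mice, 2 of the 9 genes rose with stress, Tmem254b and Fam205a2, and none fell; in that comparison 9.71% of all genes rose and 21.9% were called in either direction, so 2 of 9 is not far from the background. Tmem254b rose from 51.6 ± 0.398 to 71.7 ± 8.52 CPM (SD, 3 libraries each), a log2 fold change of 0.47 ± 0.08 (SE; edgeR quasi-likelihood test, Benjamini-Hochberg adjusted p = 0.0122), and all 3 stressed libraries lay above the unstressed ones. Fam205a2 rose from 30.1 ± 8.19 to 50.6 ± 6.87 CPM (log2 0.75 ± 0.17, adjusted p = 0.0169), also without overlap. Groups of 3 did not overlap for 36.6% of all genes in this comparison. The log2 fold change was above 0 for all 9 genes with all libraries in the fit, with a median of 0.47 against 0.0023 over all genes, but Ccl21b was at -0.012 without unstressed WT libraries 1 and 2, and Plac9b at -0.062 and Srp54b at -0.048 without unstressed WT library 3. Those that did not pass were 4933409K07Rik (0.68 ± 0.24, adjusted p = 0.0599), Gm3893 (0.60 ± 0.24, 0.0916), Tmem254a (0.57 ± 0.21, 0.0699), Plac9a (0.47 ± 0.20, 0.116) and Ccl21b (0.42 ± 0.35, 0.392). For Plac9b the value was 0.05 (95% interval -0.39 to 0.49) and for Srp54b 0.05 (-0.28 to 0.38). Summed over copies, Tmem254a and Tmem254b rose by 0.48 ± 0.08 (adjusted p = 0.0123), while the Plac9 sum (0.29 ± 0.17, 0.237), the 3 Ccl21 rows (0.44 ± 0.20, 0.118) and the 3 Srp54 rows (0.18 ± 0.10, 0.199) did not pass.

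Both calls rest on few libraries. Without unstressed WT libraries 1 and 2, which leaves 1 library assumed to vary like the other groups, Tmem254b kept a log2 fold change of 0.46 (adjusted p = 0.297) and Fam205a2 was at 0.38 (0.399). Each call was also lost without unstressed WT library 2 alone (Tmem254b 0.47, adjusted p 0.0658; Fam205a2 0.72, 0.0834) and without stressed WT library 2 (0.41, 0.0641, and 0.72, 0.0713). Without unstressed WT library 2 alone, or without stressed WT library 2, 0 genes were called in the whole table. Without unstressed WT library 3, 5 of the 9 genes were called, and 5635 of all genes. Other cell types moved between the same groups: summed oligodendrocyte markers (6 of 6 above 0) were at 1144 to 1383 CPM in unstressed and 1693 to 2980 CPM in stressed WT, and meningeal fibroblast markers (6 of 6) at 73.0 to 201 and 24.8 to 58.9 CPM. Their part in the stress result was not tested. Tmem254b was at 51.2, 51.8 and 51.9 CPM in the 3 unstressed WT libraries, and summed olfactory bulb markers there ran from 94.7 to 784 CPM.

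In KO mice none of the 9 genes was called with stress by edgeR, where 0.0197% of all genes were; 1 of the 9 and 1398 of all genes had an unadjusted p under 0.05, and DESeq2 called 0 of the 9. The log2 fold change was -0.07 for Tmem254b (95% interval -0.26 to 0.12) and 0.05 for Fam205a2 (-0.35 to 0.45). Plac9a was at 0.453, 0.496 and 0.410 CPM in unstressed and 1.05, 0.657 and 1.02 CPM in stressed libraries (log2 1.01 ± 0.28, adjusted p = 0.470), and Plac9b at 0.386, 0.463 and 0.337 CPM against 0.235, 0.163 and 0.325 CPM. Plac9b passed the filter on low counts through WT alone and held 3.38 to 10.14 counts in KO, so its fitted value there is not used. Ccl21b also passed it through WT alone and held 0 to 12 counts in KO. For neither gene could a change in KO be detected unless it was large. Both stay in the counts out of 9 here, in the average over genotypes and in the interaction. Neither Plac9 copy overlapped between the groups, and 16.9% of all genes did not, but the values of Plac9b rest on the few counts above. Of the Plac9a and Plac9b counts, Plac9a held 53.5 ± 1.65% without and 79.2 ± 3.03% with stress, and that share was not tested. The 2 copies together held 15 to 37 counts per library, under the minimum of 30 set for a test in all but 1 of them. The log2 fold change of the pair's sum was 0.43 ± 0.23 (adjusted p = 0.596). Summed striatal projection neuron markers were at 524 CPM in stressed KO library 1 and at most 161 CPM in any other library. Oligodendrocyte markers were at 2462 CPM in that library, and at 1153 and 1085 CPM in stressed KO libraries 2 and 3. The part of this tissue makeup in the KO, averaged and interaction results was not tested.

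Averaged over genotypes, edgeR called 0 of the 9 genes with stress, where 0.0395% of all genes were called. At an unadjusted p under 0.05 there were 4 of the 9 and 3622 of all genes. DESeq2 called 2 of the 9, Plac9a and Fam205a2, and 1203 of all genes. In edgeR the closest were Plac9a (0.74 ± 0.18, adjusted p = 0.0719) and Tmem254b (0.20 ± 0.06, 0.0946). Without unstressed WT library 3, edgeR called 5 of the 9 and 3003 of all genes.

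Whether stress acted differently in the genotypes was tested directly. No gene of the 9 passed, as none did in the whole table (0%). Tmem254b came closest, with a stress effect lower in KO than in WT by 0.54 ± 0.12 on the log2 scale (adjusted p = 0.0507), followed by Fam205a2 (-0.70 ± 0.25, 0.104) and 4933409K07Rik (-0.95 ± 0.34, 0.107). Leaving out unstressed WT libraries 1 and 2 gave -0.53 (0.310), -0.34 (0.522) and -0.42 (0.495). At an unadjusted p under 0.05 there were 3 of the 9 and 4330 of all genes. DESeq2 called 2 of the 9, Tmem254b and 4933409K07Rik, and 1852 of all genes. Without unstressed WT library 3, edgeR called 4 of the 9 and 3851 of all genes. This comparison shares the WT libraries with the comparison of stress in WT.

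**Figure D4:**
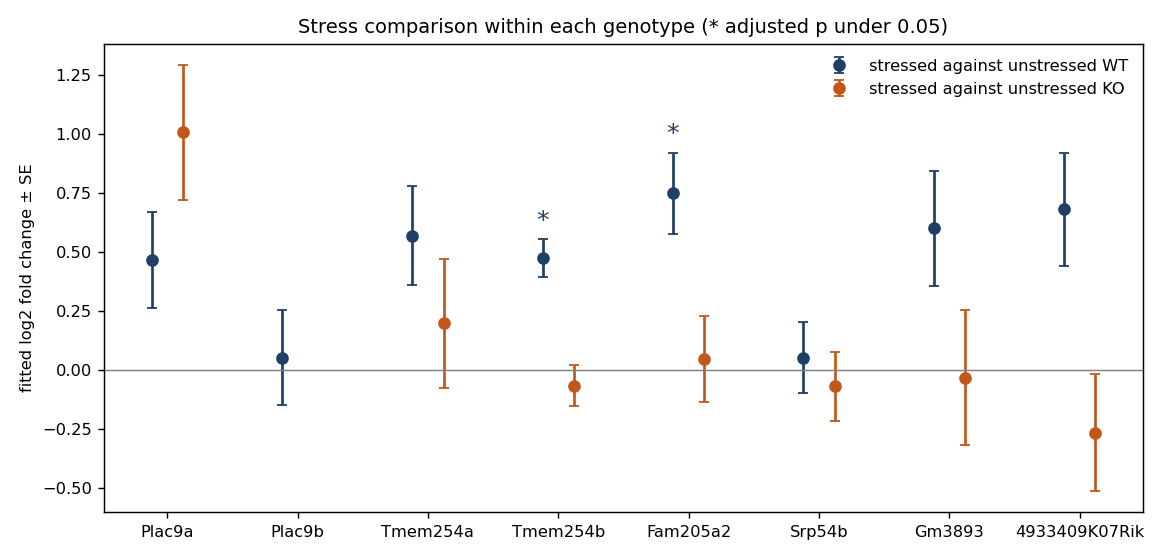
Fitted log2 fold change with stress (vertical axis, points with SE) in WT and in KO for 8 of the 9 genes (horizontal axis); Ccl21b and the KO value of Plac9b are left out because of low counts in KO (0 to 12 and 3.38 to 10.14). Stars mark Tmem254b (0.47) and Fam205a2 (0.75) in WT, the 2 values past the threshold; in KO both lie near 0 (-0.07 and 0.05).

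Genes for the signal recognition particle and its receptor were described from a list of 10, which includes Srp54a and Srp54c. These are copies of Srp54b, which shares 79.2% and 69.5% of its 100-base stretches with them. Their calls are therefore not independent of how Srp54b was chosen. Of the 10 listed genes, 9 had a row and were tested. Without stress, 5 were higher in KO and 0 lower (11.2% of all genes were higher and 23.2% were called): Srp54a (0.53 ± 0.11 on the log2 scale, adjusted p = 0.0115), Srp19 (0.38 ± 0.09, 0.0193), Srp9 (0.36 ± 0.09, 0.0213), Srp14 (0.46 ± 0.13, 0.0272) and Srp54c (0.35 ± 0.12, 0.0488). Srp9 and Srp14 form the part of the particle that pauses translation, and Srp19 helps SRP54 to bind the particle's RNA. Srp9, Srp14 and Srp19 are not copies of Srp54b, and averaged over stress levels none of them passed (edgeR adjusted p 0.0761 to 0.108). The list's median was 0.35 against 0.0044 over all genes. With stress none of the 9 was called (0.250% of all genes), with a median of 0.02, and 0 were called without stress once unstressed WT libraries 1 and 2 were left out, with Srp54a then at 0.51, Srp14 at 0.51, Srp19 at 0.39, Srp9 at 0.28 and Srp54c at 0.19 (adjusted p 0.229 to 0.617). Averaged over stress levels Srp54a alone passed (0.39 ± 0.08, adjusted p = 0.0196; 6.33% of all genes were called), and it did not without those 2 libraries (0.38 ± 0.10, 0.118). With stress in WT, Srp19 (0.31 ± 0.09, adjusted p = 0.0360) and Srpr, the receptor's alpha subunit (0.19 ± 0.06, 0.0468), rose, 2 of 9 where 9.71% of all genes rose. They were at 0.33 (0.378) and 0.17 (0.495) without unstressed WT libraries 1 and 2.

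Of the 5 genes listed around CCR7, Ccl19 and Ccl21c had enough counts for a test, and Ccr7 itself did not exceed 0.171 CPM. Ccl21c, a copy in the family of Ccl21b, was called lower in KO averaged over stress levels (adjusted p = 0.0379, and 0.0521 without unstressed WT libraries 1 and 2). Its range was 0 to 1.49 CPM over WT libraries, against 0 to 0.129 CPM (median 0) over KO libraries, so the genotypes overlapped and its fitted value is not given. Its row equals that of Gm10591, which has the coding sequence of Ccl21b. The call for Ccl21c is therefore not independent of how Ccl21b was chosen. Ccl19, the other ligand of CCR7, had whole counts in all 12 libraries, though 39.3% of its 100-base stretches occur under other symbols. It lies on chromosome 4 (chr4:42754525-42756365) within 1 Mb of Ccl21b and Fam205a2, so it is also one of the neighbouring genes compared below. It was lower in KO without stress, at 0.229 to 0.365 CPM against 0.828 to 1.58 CPM (log2 -1.97 ± 0.59, adjusted p = 0.0345). With stress it was at 0.0696 to 0.704 CPM in KO and 0.483 to 1.16 CPM in WT (-0.95 ± 0.59, adjusted p = 0.534). The lower level without stress was not called without unstressed WT libraries 1 and 2 (-1.55 ± 0.78, adjusted p = 0.378). Lymphatic endothelial markers (4 of 4 above 0) summed to 20.0 to 24.7 CPM in unstressed WT and 12.7 to 18.3 CPM in the other 3 groups, and their part in the level of Ccl19 or Ccl21b was not tested.

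Genes lying within 1 Mb of the 3 loci, other than family copies and 2 rows that share sequence with Ccl21b (Gm10591 and Gm13304), were compared between genotypes to see whether the difference reached past the duplicated genes. Of 65 tested, 5 were higher and 2 lower in KO averaged over stress levels, 10.8% against 6.33% of all genes (3.11% higher). Among the 11 neighbours that carried decimals in at least 6 libraries 4 were called (36.4%), and among the other 54 there were 3 (5.56%). Duxbl2 with Duxbl3, Ccl27b with Gm13306, and Gm20878 with Gm21586 are identical rows counted under both symbols, so both lower calls hold the same values. Fam177a, with decimals in 5 libraries, counts among the 54. The shares of 36.4% and 5.56% thus depend on duplicate rows and on the cutoff. On chromosome 12, Fam177a, whose row is the same as that of 1700047I17Rik2, was higher in KO (0.78 ± 0.12, adjusted p = 0.00692), as was Ppp2r3c, a phosphatase regulatory subunit (0.31 ± 0.06, 0.0184). On chromosome 14, Duxbl2 and Duxbl3, homeobox genes with identical rows between and beyond the Plac9 and Tmem254 copies, were lower (-2.34 ± 0.48, adjusted p = 0.0220) at 0.336 to 1.24 CPM in WT and 0 to 0.226 CPM in KO. On chromosome 4, Nudt2, a nucleotide hydrolase (0.43 ± 0.08, 0.0195), and Il11ra1, an interleukin-11 receptor chain (0.34 ± 0.07, 0.0255), were higher. Il11ra1 had decimals in 12 libraries. Of its 100-base stretches 29.1% occur in Gm13305 and 10.3% in Il11ra2, so its reads may be shared with them. Its end overlaps Ccl27a only at chr4:41769467-41769473. Without stress 27.7% of the neighbours were called against 23.2% of all genes, and with stress 0 against 0.250%. Without unstressed WT libraries 1 and 2, 0 neighbours were called averaged over stress levels, with Fam177a then at 0.69, Ppp2r3c at 0.32, Nudt2 at 0.45, Il11ra1 at 0.30 and Duxbl2 at -1.77 (adjusted p 0.0626 to 0.159).

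**Figure D5:**
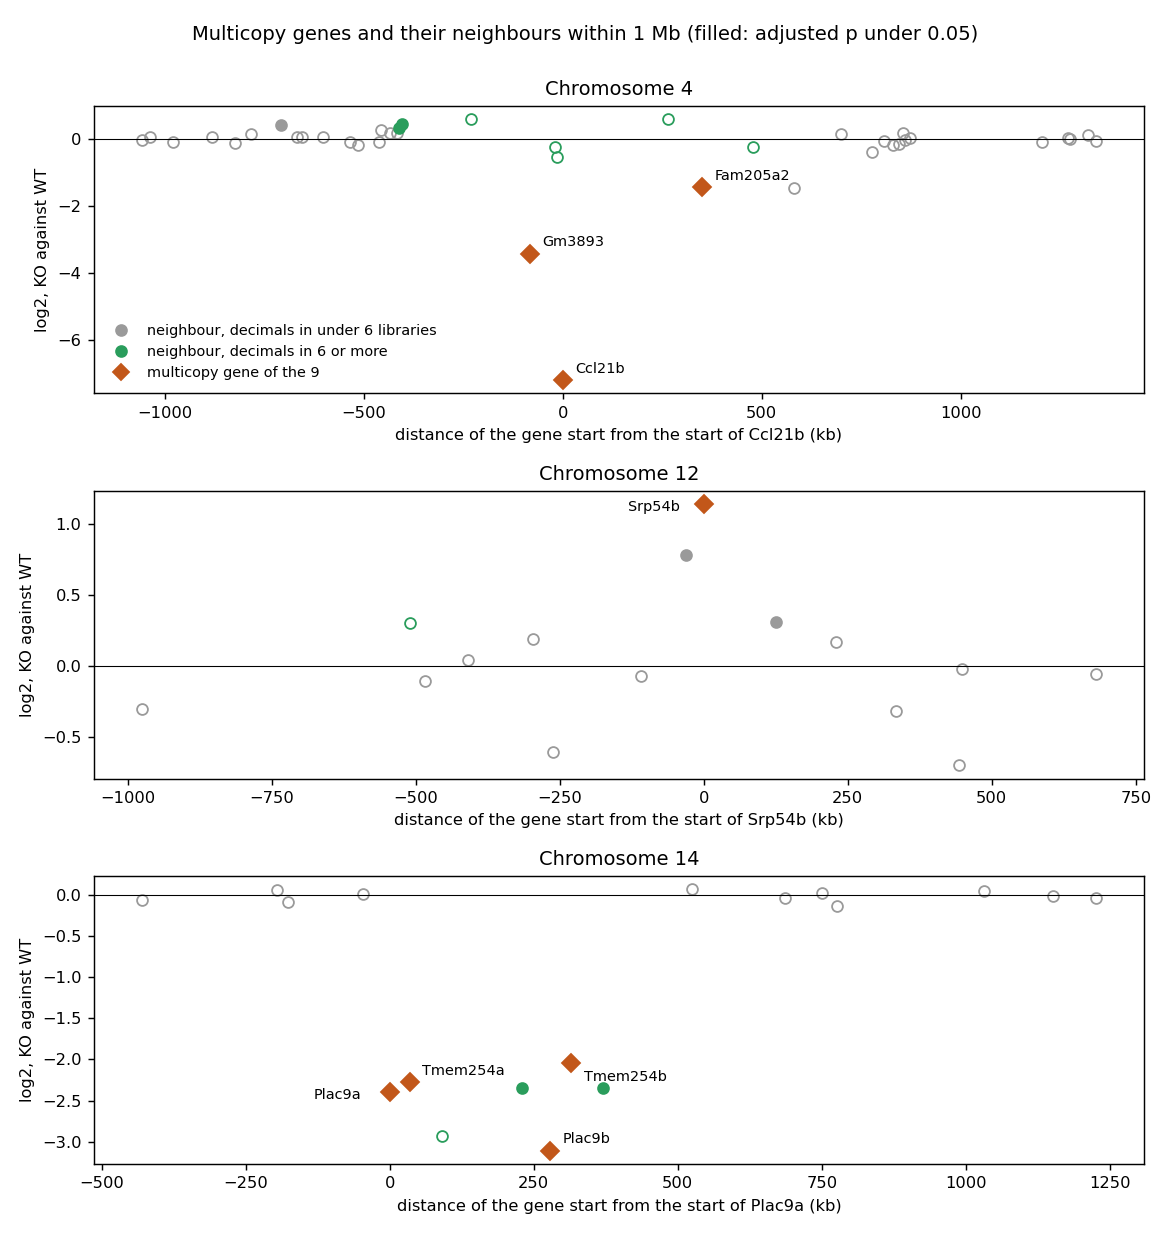
Fitted log2 difference of KO against WT, averaged over stress levels (vertical axis), for the multicopy genes (diamonds) and other tested genes within 1 Mb (circles, filled where adjusted p is under 0.05), by distance of their starts (horizontal axis, kb) in 3 panels, 1 per chromosome. Rows with decimals in at least 6 libraries are green; on chromosome 14 the neighbours with values far below 0 start among the 4 multicopy genes or just past Tmem254b.

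Over the whole table, 798 tested genes had decimals in at least 6 libraries. Averaged over stress levels 9.15% of them were called between genotypes, 29 higher and 44 lower in KO, against 6.17% of the other 14401. With stress the shares were 1.38% and 0.187%, and without stress 19.5% and 23.4%. The 9 genes are among those 798, so the shares are a description and not independent of how they were chosen.

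The genes whose levels ran most alike with each of the 9 over the 12 libraries were listed by Pearson's r of log2 CPM. Since both genotypes lie apart for all 9, r over 12 libraries mostly follows that split, so values within each genotype (6 libraries) are given. For Srp54b the most alike was Nnt, a mitochondrial proton-pumping transhydrogenase whose gene is known to carry a deletion of several exons in the C57BL/6J substrain. Nnt had no decimals and lay at 15.7 to 17.8 CPM in WT and 28.9 to 34.6 CPM in KO, without overlap; having been picked for running like Srp54b it is described with no test, and r with Srp54b was 0.09 within WT and 0.77 within KO. Gm3893 and 4933409K07Rik ran together within WT (r = 0.99) and less so within KO (0.63). Fam205a2 followed 4933409K07Rik within WT (0.98) but not within KO (-0.22), and followed Chac1, a glutathione-degrading enzyme, in both (0.98 and 0.98). For Tmem254b the most alike were Gm3893, Plac9b and Ccl21b, with r of 0.69, 0.27 and 0.49 within WT and 0.06, 0.58 and 0.01 within KO. Plac9a ran most like Rbm42, an RNA-binding protein gene (0.76 and 0.89). These r values are descriptions over libraries that share their depth and tissue makeup.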

How the data were processed

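RNA was measured in 12 libraries, 4 groups of 3. The authors' deposited table holds estimated counts, 1 row a symbol, not normalised. Trim Galore 0.6.6, STAR 2.7.9a, RSEM 1.3.1, DESeq2 1.36.0 and the build mm10 were used per the submitters' processing notes; for the annotation, strand setting and filters, nothing is given in the sources used here. RSEM's sharing of reads among copies sets the level of each copy.

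Counts were rounded to whole numbers, filtered by filterByExpr in edgeR (at least 10 counts, total at least 15; 15199 of 24411 rows kept) and scaled with TMM factors. Totals of 15469590 to 31082240 limit precision. The 4 group means were fitted with edgeR's quasi-likelihood model (edgeR 4.0.16, limma 3.58.1, R 4.3.3; 8 residual degrees of freedom), with two-sided tests and Benjamini-Hochberg adjustment over all 15199 genes at 0.05. CPM used the deposited decimals; log2 CPM had a prior count of 2. The test was checked on simulated data. Alternatives were DESeq2 1.42.0, its size factors, no filter, other rounding, only the groups compared, a replicate block and leaving out libraries. Replicates were compared (chi-square per degree of freedom 4.90 to 71.1) and none was a duplicate. Sequences and positions came from GENCODE M21 (GRCm38) and RefSeq (GRCm38.p6).

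The genes and lists were chosen with earlier results of these data known. All 9 genes and Cacna1g were named, with family copies and list genes that passed a test and the 6 neighbouring genes with the smallest p. Of the 2 genes with the smallest p in a list and the 3 genes most alike per gene, only some were named. Values of single libraries, the genes named in the closing section and libraries whose removal changed a call were picked after their values were seen.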

Additional observations from a re-analysis of the deposited data

How the results depend on the processing

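As reported, edgeR called 3322 genes with stress in WT (2 of the 9), 3 in KO, 6 averaged over genotypes and 0 in the interaction, and 3529, 38 and 962 between genotypes without stress, with stress and averaged. No pairing of the libraries by replicate number was found, though none is excluded. Deviations of same-numbered libraries from their group means correlated by -0.246 to 0.364 over 18 pairs (mean 0.0178). With the number as a replicate block, 4 of the 9 genes were called with stress in WT. The count over all genes in that comparison stayed of the same order as the 3322 above. In another comparison, stress averaged over genotypes, the block gave 25 of all genes. Fitting only the groups compared left 1 gene called with stress in WT, 0 of them among the 9, and 18 between genotypes without stress. DESeq2 called 43 genes with stress in KO, 1203 with stress averaged over genotypes (2 of the 9), 1852 in the interaction (2 of the 9), 296 between genotypes with stress and 1900 averaged over stress levels. In the interaction 198 genes were called with DESeq2's size factors, 143 with no filter and 91 with counts rounded down. Requiring decimals in all 12 libraries left 538 tested genes. Averaged over stress levels 48 of them (8.92%) were called between genotypes, against 9.15% of those with decimals in at least 6 libraries.

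Without unstressed WT libraries 1 and 2, with stress in WT 0 genes, 0 of the 9 and 0 family sums were called (the sums added after seeing the data), and Ccl21b was at -0.012 (log2). There was then 1 gene called with stress averaged over genotypes, and 18, 82 and 78 genes were called between genotypes without stress, with stress and averaged. Among neighbours 0, 2 (Ccl27b and the identical Gm13306) and 0 were called, among genes with decimals 9 without stress and 17 averaged, and in the signal recognition particle list 0 in both, all added after seeing the data.

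Leaving out each library in turn gave 0 to 5635 genes called with stress in WT (0 to 5 of the 9), 1 to 5 in KO (0 of the 9), 2 to 3003 averaged (0 to 5) and 0 to 3851 in the interaction (0 to 4). The highest count of each, apart from KO, came without unstressed WT library 3. Between genotypes it gave 234 to 5729 genes without stress, 19 to 116 with stress and 164 to 3308 averaged, lowest without unstressed WT library 2, stressed WT library 2 and stressed WT library 1 and highest without unstressed WT library 3. Family sums called ranged from 0 to 3 with stress in WT and 0 to 2 in both the average and the interaction. Log2 values that crossed 0 ranged from -0.062 to 0.21 for Plac9b and -0.048 to 0.19 for Srp54b with stress in WT, and from -0.037 to 0.16 for Fam205a2 in KO. The change in the Fam205a2 share ranged from -0.276 to 0.391 percentage points. Without unstressed WT libraries 1 and 2 (added after seeing the data) the Srp54b and Fam205a2 shares differed by 0.463 and 0.0548 points. For the genotype difference of Ccl21b, leaving out unstressed KO library 2 moved the log2 value to -9.80. Of 170 other values of genotype differences under alternatives, all moved by less than the replicate spread. The cause of these shifts was not tested. Plac9b held 3.38 to 10.14 estimated counts in KO libraries, so changes there are not detectable at this depth unless they are large.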

Other observations

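Some estimated counts recurred to the last digit in libraries of different depth. Tmem254a held 26.73 estimated counts in unstressed KO library 2 and in stressed KO library 1, and 23.21 in unstressed KO library 1 and in stressed KO library 2. Plac9b held 6.76 in unstressed KO library 3 and in stressed KO library 1. A count of 3.38 appeared for Plac9b in stressed KO library 2 and for Ccl21c in unstressed KO library 1.

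Whole rows of the table were also the same under different symbols. In all, 198 sets of rows with any count were identical in every library, and 9 of these held at least 100 counts a row. They include Ccl27b with Gm13306 and LOC100861978, on chromosome 4 near Ccl21b, at 2.66 to 10.3 CPM in WT and 4.49 to 5.41 CPM in KO. The Hbb-b2 and Hbb-bt rows, beta-globin genes expressed in red blood cells, held 1096 counts each, identical in all 12 libraries.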
